A study of Drosophila melanogaster with 7 samples.

Results

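The 10 genes described here encode parts of the cohesin machinery that work with Rad21: the ring subunits SMC1 and SMC3 and the ring-bound subunit SA1, the loader proteins Nipped-B and Mau2, the acetyltransferases san and eco, and the release and protection factors wapl, pds5 and dmt. They were taken as every probe whose gene symbol in the probe annotation, or whose current name or synonym in the RefSeq gene table, was one of these names. This gave 10 of 11609 named genes, each with 1 of the 14569 probes. The genes lie on chromosome arms X (SMC3 and wapl), 2L (SA1), 2R (Nipped-B, san and pds5), 3L (eco) and 3R (SMC1, Mau2 and dmt).

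Cohesin is a ring that holds DNA. SMC1 and SMC3 form the long arms and Rad21 closes the ring, and SA1 sits on Rad21. Nipped-B, with its partner Mau2, puts the ring onto chromosomes, wapl and pds5 take it off again, and acetylation of SMC3 by eco makes the hold stable when chromosomes are copied. In cells that no longer divide, such as the larval salivary gland with its giant polytene chromosomes, cohesin is known for its part in gene expression.

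The arrays, 7 in all and each in 2 colours, set total RNA of salivary glands with cleaved Rad21 against that of glands with intact Rad21, from Drosophila melanogaster larvae crawling at the third instar. In the cleaved glands the chromosome pair Rad21ex15 Rad21(TEV)/Rad21ex3 stood on a w1118; hs-TEV/+ background, so that their Rad21 could be cut by TEV protease. The glands with intact Rad21 were w1118; hs-TEV/+; genomic Rad21/Rad21ex3 on arrays 1.1, 1.2 and 1.3, and w1118; hs-TEV/+; Rad21ex3 tgRad21/Rad21ex3, with a Rad21 transgene, on arrays 2.1 to 2.4. All glands thus carried the heat-inducible protease and the Rad21ex3 allele, and all had a heat shock of 45 min at 37 °C followed by 10 to 12 h of recovery. The heat shock promoter acts in many tissues, and the protease cuts the protein, so no transcript measured here checks the cleavage. The cleaved and intact samples also came from different stocks, and stock and cleavage cannot be told apart. The sources used here do not say how many animals gave each sample.

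Each value below is the authors' deposited log ratio of 1 probe on 1 array, read as log2. No source used here says which sample was divided by which, so signs are given as deposited. Below 0, the cleaved glands likely held less of the transcript. That reading rests on knowledge from outside the files: the ecdysone receptor gene EcR is known to be lower after cohesin cleavage in this tissue, and its probe was negative on 7 of 7 arrays here. Ratios between samples give no level, so the tissue could not be checked for its markers. Of 5 measured salivary gland markers 2 had called ratios in limma, Sgs1 at −6.21 and sage at −1.13. The others, Sgs5, Sgs4 and fkh, lay at −1.06, −0.48 and −0.01 and were not called. Of 5 fat body markers 1, Apoltp, was called, with a positive ratio of 0.91. Among all named genes 8.30% had a called probe. The calls of sage and Apoltp were not stable: sage missed the threshold once the median of the surrounding probes was taken off (limma adjusted p = 0.0667), and Apoltp without array 1.3 (limma adjusted p = 0.066). The fat body gene Fbp1 lay at −1.097 ± 0.33, negative on 6 of 7 arrays, and did not pass (limma adjusted p = 0.0868). It passed with the surrounding median taken off (limma adjusted p = 0.0481), but not without array 1.3 (−0.70, limma adjusted p = 0.144). The fat body genes Fbp2, Lsp2 and apolpp, at 0.19, −0.16 and −0.16, were not called. What part these play in the values of the cohesin genes was not tested.

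No cohesin gene passed the test for a ratio away from 0. In limma's test, with a dye term and Benjamini-Hochberg adjustment over all probes, 0 of the 10 passed an adjusted p under 0.05, where 7.95% of all 14569 probes did. At an unadjusted p under 0.05 the count was 1 of 10, eco, against 20.02% of all probes. The fitted log2 ratios lay between −0.37 and 0.28, with a median of −0.05, beside 0.02 for all probes. For each of the 10 the 95% interval of the fitted value lay inside 1 log2 unit on either side of 0. The median absolute log2 ratio of the called probes was 1.01, and the smallest was 0.49. An interval that holds 0 does not show that a transcript was equal in both samples. Without array 1.3 the count was again 0 of 10, where 5.62% of all probes were called. It was also 0 in 17 other settings of the fit, in which between 3.53% and 11.6% of all probes were called. These 17 do not hold the fits of the genomic or the transgenic arrays alone, given below. On the genomic arrays alone some cohesin genes passed. None of the 10 had the same sign on all 7 arrays, where 11.7% of all probes did.

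**Figure D1:**
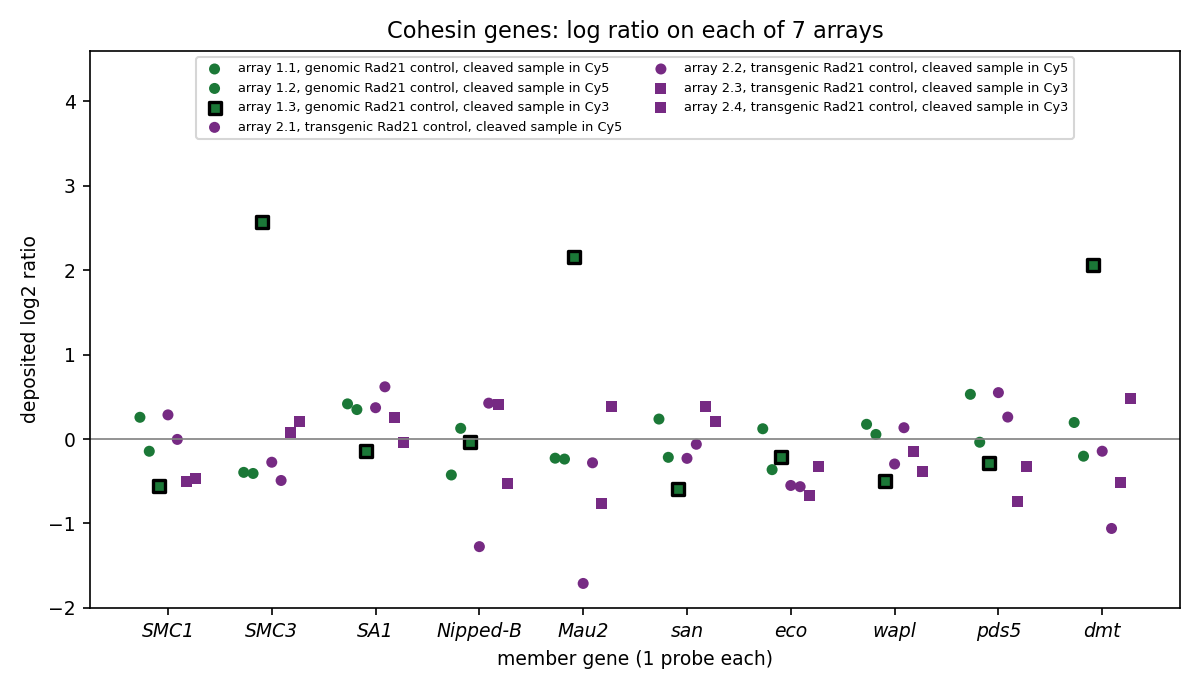
Deposited log2 ratio (vertical axis) of the 10 cohesin genes (horizontal axis), 1 point per array. Green marks the 3 arrays with a genomic Rad21 control and purple the 4 with a transgenic one, circles mark arrays with the cleaved sample in Cy5 and squares those with it in Cy3, and array 1.3 is outlined in black. SMC3, Mau2 and dmt stand between 2.06 and 2.57 on array 1.3, while the other genes of that array lie below 0.

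The ring subunits gave 1 negative and 2 positive fitted values. For SMC1, one of the long arms of the ring, the log2 ratio was 0.26, −0.14 and −0.56 on the genomic arrays 1.1 to 1.3 and 0.29, −0.0046, −0.51 and −0.47 on the transgenic arrays 2.1 to 2.4. The fitted value was −0.21 ± 0.13 (SE, n = 7, limma adjusted p = 0.469), with a 95% interval from −0.50 to 0.09. Both sets of arrays held values above and below 0.

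SMC3 is the other long arm, and the subunit that eco acetylates. Its log2 ratio was −0.40, −0.41 and 2.57 on arrays 1.1 to 1.3 and −0.28, −0.49, 0.07 and 0.20 on arrays 2.1 to 2.4. A single array thus stood far from the other 6, which ran from −0.49 to 0.20. The fitted value was 0.28 ± 0.29 (SE, n = 7, limma adjusted p = 0.735) on all arrays, and −0.13 ± 0.14 without array 1.3 (adjusted p = 0.743), so its sign turned.

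SA1, the subunit that rests on Rad21, was the most evenly positive gene of the 10. It read 0.42, 0.35 and −0.14 on arrays 1.1 to 1.3 and 0.37, 0.62, 0.25 and −0.04 on arrays 2.1 to 2.4. The 2 negative values were small, and the SD over the 7 arrays was 0.27, lower than for all but 7.1% of the probes. The fitted log2 ratio was 0.23 ± 0.13 (limma adjusted p = 0.393), and 0.27 ± 0.14 without array 1.3 (adjusted p = 0.379).

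Of the loader genes, Nipped-B encodes the large protein that opens and loads the ring. Its log2 ratio was −0.43, 0.13 and −0.04 on arrays 1.1 to 1.3 and −1.28, 0.42, 0.40 and −0.52 on arrays 2.1 to 2.4. Both its lowest and its highest value came from transgenic arrays. The fitted value was −0.17 ± 0.23 (95% interval −0.70 to 0.36, limma adjusted p = 0.808).

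Mau2, the partner of Nipped-B, was the most widely spread gene of the 10. It read −0.23, −0.24 and 2.15 on arrays 1.1 to 1.3 and −1.71, −0.28, −0.76 and 0.38 on arrays 2.1 to 2.4. Its SD over 7 arrays was 1.18, and 0.71 without array 1.3. The fitted log2 ratio of −0.01 ± 0.35 (limma adjusted p = 0.993) became −0.40 ± 0.28 without that array (adjusted p = 0.538), with an interval from −1.06 to 0.26.

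Of the acetyltransferases, eco had the most negative fitted value and the smallest p of the 10. Its log2 ratio was 0.12, −0.36 and −0.22 on arrays 1.1 to 1.3 and −0.55, −0.56, −0.67 and −0.32 on arrays 2.1 to 2.4. Only array 1.1 was positive, and the 4 transgenic arrays were all negative. The fitted value was −0.37 ± 0.15, with a 95% interval from −0.71 to −0.03, but it did not pass the test over all probes (limma adjusted p = 0.197). Its size was larger than that of 70.6% of all probes. Without array 1.3 the fitted value was −0.42 ± 0.17 (adjusted p = 0.226). The 95% interval left out 0 without array 1.1 or 1.3. It held 0 when array 1.2, 2.1, 2.2, 2.3 or 2.4 was left out. The upper ends were 0.0535, 0.0493, 0.0501, 0.0656 and 0.0236 in that order. With a set term the upper end was 0.0022.

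The second gene of this group, san, encodes an N-terminal acetyltransferase that sister chromatid cohesion requires. Its log2 ratios ran from −0.59 on array 1.3 to 0.38 on array 2.3, with 4 negative and 3 positive. The fitted value was −0.03 ± 0.16 (limma adjusted p = 0.96), and 0.11 ± 0.15 without array 1.3.

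Among the release and protection factors, wapl, which takes the ring off chromosomes, ran from −0.49 on array 1.3 to 0.17 on array 1.1. Its SD of 0.26 was lower than for all but 6.9% of the probes, and its fitted log2 ratio was −0.16 ± 0.13 (95% interval −0.47 to 0.14, limma adjusted p = 0.63). For pds5, which binds wapl and Rad21, the ratios ran from −0.74 on array 2.3 to 0.55 on array 2.1, with a fitted value of −0.06 ± 0.14 (adjusted p = 0.902).

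The gene dmt (dalmatian) encodes a protein known in Drosophila to guard cohesion against release. Its log2 ratio was 0.20, −0.20 and 2.06 on arrays 1.1 to 1.3 and −0.14, −1.06, −0.51 and 0.48 on arrays 2.1 to 2.4. As for SMC3 and Mau2, array 1.3 lay above all others. The fitted value was 0.19 ± 0.30 on all arrays (limma adjusted p = 0.851) and −0.16 ± 0.23 without array 1.3 (adjusted p = 0.822).

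The values of SMC3, Mau2 and dmt on array 1.3 were read against the probes around them. The last digits of each probe number could be split into a block, a row and a column, a reading that the sources used here do not state. It gave 48 blocks and a position for 13861 probes, of which 12631 had only 1 possible split. The rest were placed only at positions not yet taken. Having at most 1 probe at each position was thus partly imposed. On array 1.3 the block median exceeded 1 in 6 of the 48 blocks. In those blocks 62.9% of the probes had a log2 ratio above 1.5, against 2.68% elsewhere. The blocks were picked by the same values, so a gap between these shares follows from the choice. The genes SMC3 and dmt lay in these blocks, and Mau2 lay in a neighbouring block whose median was 0.49.

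**Figure D2:**
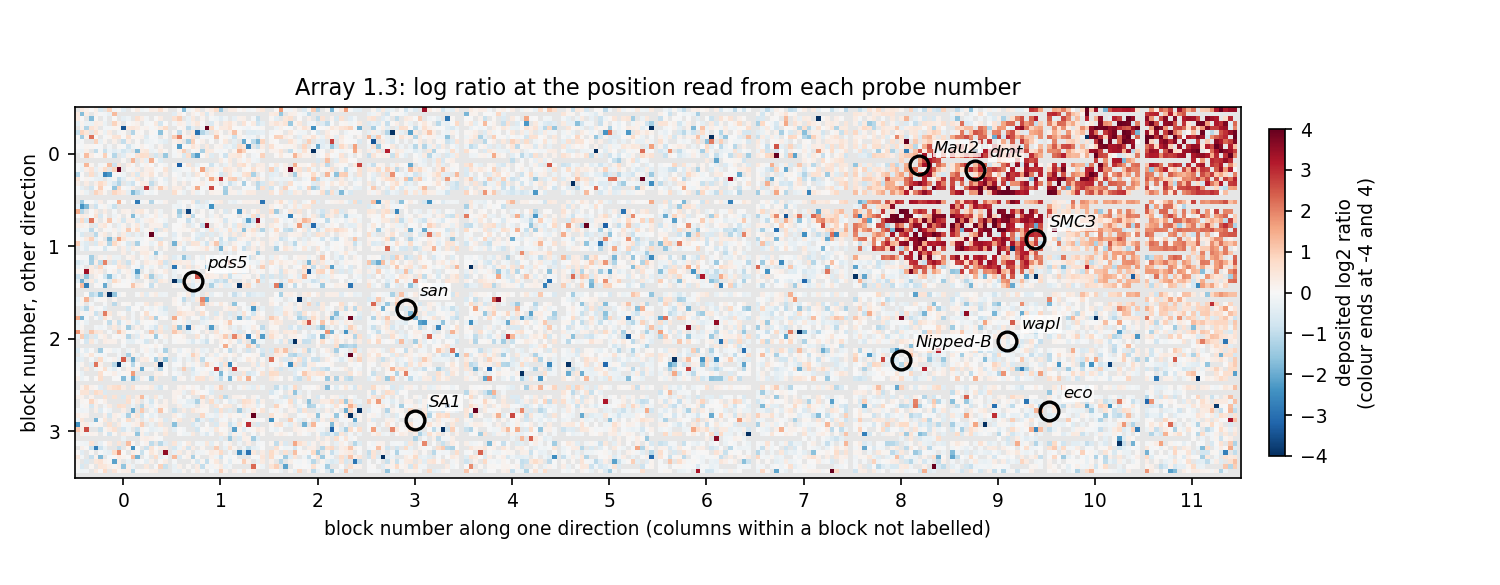
Array 1.3 laid out by the block, row and column read from each probe number, with 12 blocks across and 4 down. Colour gives the deposited log2 ratio (red positive, blue negative, ending at −4 and 4), grey marks empty positions and gaps between blocks, and circles mark 9 cohesin genes. A region at the upper right is mostly red and holds Mau2, dmt and SMC3, while the other marked genes lie outside it. The row and column of SMC1 could not be settled, and it is not drawn.

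The local median was taken over probes of the same block within 3 rows and 3 columns of each gene. On array 1.3 it was 2.63 around SMC3 (27 probes), 2.11 around Mau2 (38 probes) and 2.35 around dmt (35 probes). The 3 genes therefore differed from their surroundings by −0.06, 0.04 and −0.29. For the other 7 genes the local median on array 1.3 lay between −0.11 and 0.03. For SMC1, whose row is not settled, the block median stands in for it. On array 2.1, where Mau2 read −1.71, its local median was −1.12. The −1.28 of Nipped-B on the same array had a local median of −0.09 around it.

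**Figure D3:**
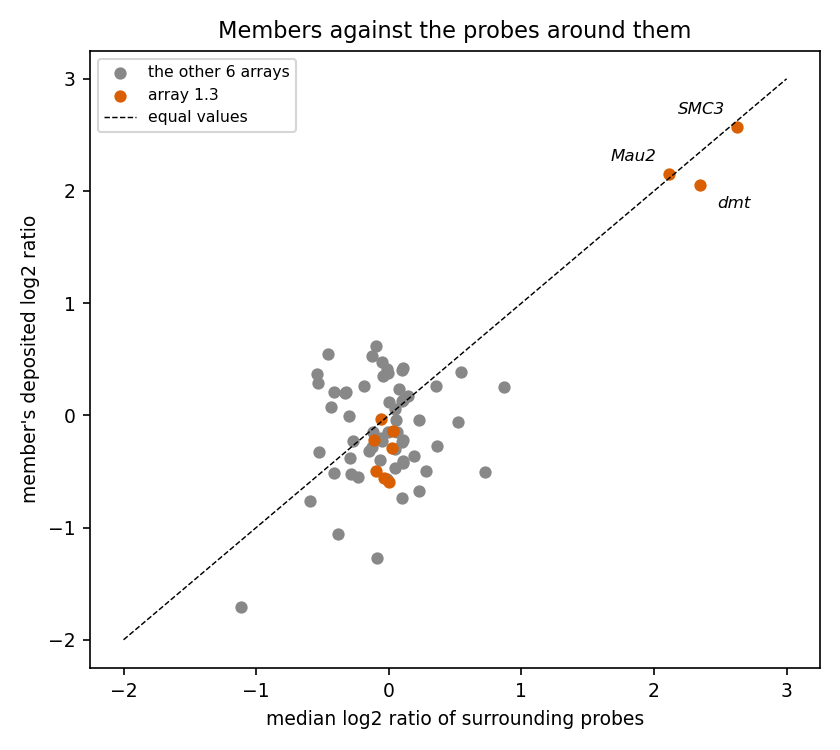
Deposited log2 ratio of each cohesin gene on each array (vertical axis) against the median log2 ratio of the probes around it (horizontal axis), for 10 genes on 7 arrays. Array 1.3 is orange and the other arrays are grey. SMC3, Mau2 and dmt lie on or close to the dashed line of equal values, with local medians between 2.11 and 2.63, apart from the remaining points.

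With the local median taken off on every array, a step chosen after the values were seen, the SD over arrays became 0.30 for Mau2 (1.18 as deposited), 0.53 for SMC3 (1.09) and 0.44 for dmt (0.99). The step did not narrow every gene: the SD became 0.70 for SMC1 (0.36 as deposited) and 0.56 for SA1 (0.27). It also grew for san (0.34 to 0.44), eco (0.27 to 0.34) and pds5 (0.48 to 0.61). For Nipped-B (0.61 to 0.53) and wapl (0.26 to 0.18) it fell. The fitted log2 ratios were then −0.12 ± 0.14 for SMC3, −0.11 ± 0.13 for Mau2 and −0.04 ± 0.18 for dmt, and 0 of the 10 genes were called, where 8.32% of 14451 probes were. For eco the value was −0.36 ± 0.16 (95% interval −0.71 to −0.0026, limma adjusted p = 0.229), close to that from the deposited ratios. SA1 was then the most positive, at 0.13 ± 0.13, where on the deposited ratios SMC3 had been, at 0.28.

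**Figure D4:**
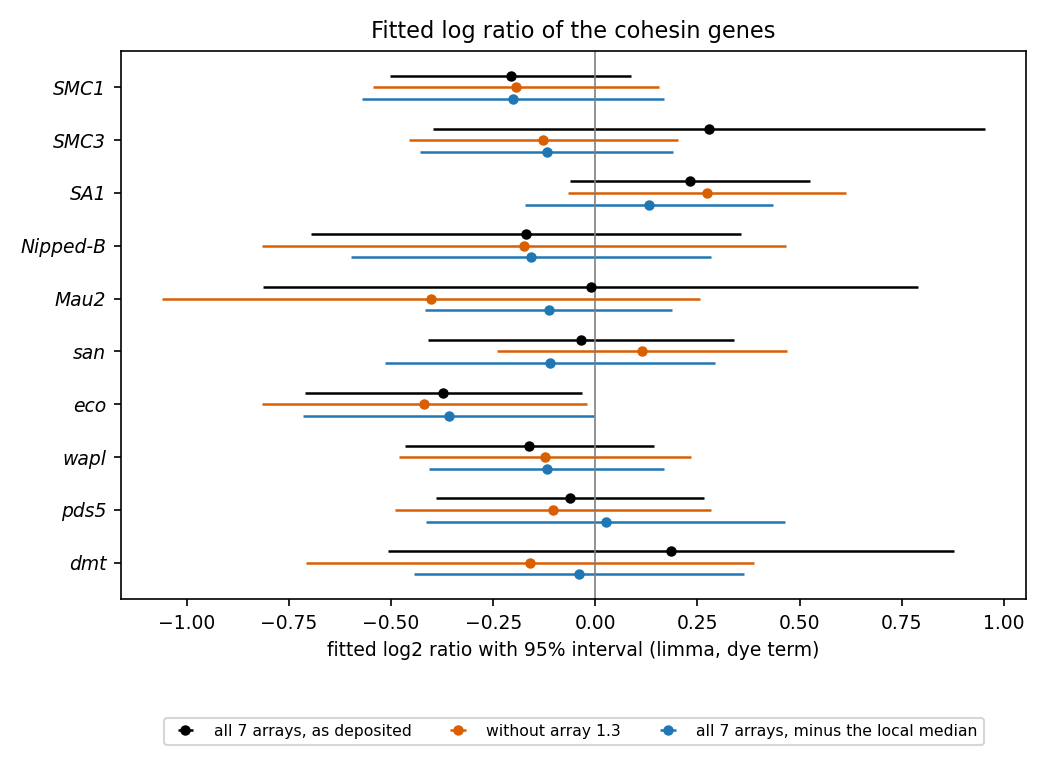
Fitted log2 ratio (horizontal axis) with its 95% interval from limma for each cohesin gene, from the deposited ratios on 7 arrays (black), without array 1.3 (orange) and with the local median taken off (blue). The interval of SMC3 runs from −0.40 to 0.95 on the deposited ratios and from −0.46 to 0.20 without array 1.3. Among the fits drawn here, only the intervals of eco leave out 0.

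Array 1.3 also decided what the genomic Rad21 arrays showed when fitted alone. There SMC3, Mau2 and dmt passed the test, at 1.08 ± 0.18, 0.96 ± 0.18 and 1.03 ± 0.19 (SE, limma adjusted p = 0.00494, 0.00832 and 0.00803), as did 19.1% of all probes. Array 1.3 is the only one of these 3 arrays with the cleaved sample in Cy3, so the dye term fits it exactly. Each value is the midpoint between array 1.3 and the mean of arrays 1.1 and 1.2. The SE comes from those 2 arrays and from the variance that limma borrows from all probes, with no replicate of array 1.3. On arrays 1.1 and 1.2 of this set these genes read between −0.41 and 0.20. On the 4 transgenic Rad21 arrays alone 0 of the 10 passed, as did 0.268% of all probes. The 3 genes read −0.12 ± 0.22, −0.59 ± 0.36 and −0.31 ± 0.31 there.

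Arrays with a genomic Rad21 control were also set against those with a transgenic one, in 1 fit that kept the dye term. For this difference 0 of the 10 genes passed in limma, as did 0% of all probes (621 of 14569 at an unadjusted p under 0.05). The largest differences, genomic minus transgenic, were 1.40 ± 0.54 for Mau2 and 1.19 ± 0.47 for dmt on the log2 scale (limma adjusted p = 0.9998 each). Their 95% intervals, from 0.12 to 2.67 and from 0.07 to 2.31, left out 0. Without array 1.3 the differences for Mau2 and dmt were 0.76 ± 0.63 and 0.60 ± 0.53, and both intervals held 0. The difference for SMC3, 0.96 ± 0.52 on all arrays, was then −0.0185 ± 0.35. With the local median taken off the differences were 0.0445 ± 0.29 for Mau2 and 0.18 ± 0.38 for dmt. For eco the genomic arrays averaged −0.15 and the transgenic arrays −0.53, a difference of 0.37 ± 0.29 (95% interval −0.31 to 1.06). No gene of the 10 had values on the genomic arrays that were all above or all below those on the transgenic arrays, where 3.97% of all probes had. The 95% interval of the difference reached past 1 log2 unit on one side for SMC3, Nipped-B, Mau2, san, eco and dmt.

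The ring genes each separated by dye orientation. SMC1 read 0.26, −0.14, 0.29 and −0.0046 on the 4 arrays with the cleaved sample in Cy5, and −0.56, −0.51 and −0.47 on the 3 arrays with it in Cy3. SA1 had 0.35 to 0.62 with Cy5 and −0.14 to 0.25 with Cy3. SMC3 ran the other way, with −0.49 to −0.28 with Cy5 and 0.07 to 2.57 with Cy3. These 3 genes and pds5 were the 4 of 10 whose values did not overlap between the orientations, where 12.2% of all probes did not overlap.

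The gene-wise dye term of the fit, Cy5 minus Cy3 on the log2 scale, was 0.61 ± 0.26 for SMC1, 0.78 ± 0.28 for pds5, 0.41 ± 0.25 for SA1 and −1.34 ± 0.59 for SMC3. None of these passed (limma adjusted p between 0.499 and 0.568), and neither did any other probe (0% called, 1445 at an unadjusted p under 0.05). With the local median taken off, the 3 ring genes still did not overlap, at 1.12 ± 0.33, 0.97 ± 0.27 and −0.89 ± 0.27 for SMC1, SA1 and SMC3 (limma adjusted p between 0.301 and 0.345), while pds5 did. The share of all probes without overlap was 12.7% there. The dye term was part of every fitted value given above. For eco it was 0.07 ± 0.29, so that its mean was −0.34 with Cy5 and −0.40 with Cy3.

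Genes that work beside cohesin were counted from fixed lists, chosen like the cohesin genes with earlier results of these data known. Of 38 measured genes in 5 lists, 1 passed the test over all probes, with a positive ratio, and 37 did not, where 8.30% of all named genes had a called probe. The exception was timeout, a Drosophila relative of timeless known for its role in keeping chromosomes intact, from the list of replication-coupled cohesion. Its log2 ratio was 1.46, 0.49 and 0.75 on arrays 1.1 to 1.3 and 0.84, 1.02, 1.68 and 1.299 on arrays 2.1 to 2.4. All 7 arrays were positive, and the fitted value was 1.096 ± 0.17 (SE, n = 7, limma adjusted p = 0.00934). It kept its call without any single array (adjusted p up to 0.0444) and with the local median taken off (0.98, limma adjusted p = 0.0104). On the 4 transgenic arrays alone it read 1.21 and did not pass (adjusted p = 0.155). The other 9 genes of this list, which holds the sliding clamp of DNA synthesis and its loaders, did not pass. Of the 10 gene means 8 were negative, where 5420 of all 11609 named genes had a negative mean.

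In the other lists 0 genes passed by limma. Condensin, the related complex that compacts chromosomes, had 7 measured genes with a median of −0.15, led by barr at −0.30 ± 0.16 (adjusted p = 0.383). The SMC5/6 complex, a relative with a role in DNA repair, had 7 genes with a median of −0.11. Its leading gene MAGE lay at −0.54 ± 0.16 and was negative on 7 of 7 arrays (limma adjusted p = 0.087).

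For release at anaphase, 11 genes had a median of −0.17, and 9 of them were negative, beside 5420 of all 11609 named genes. Here aurB, a mitotic kinase gene, lay at −0.72 ± 0.24 and was negative on 6 of 7 arrays (limma adjusted p = 0.127). That list also holds separase, the protease that cuts Rad21 in dividing cells, which did not pass. The 3 measured genes of meiotic cohesion had a median of 0.09, led by sunn at 0.44 ± 0.34. That gene read 2.23 on array 1.3 and had a fitted value of −0.013 without it (limma adjusted p = 0.986). The median over all named genes was 0.02, beside −0.13 over the 38 genes.

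**Figure D5:**
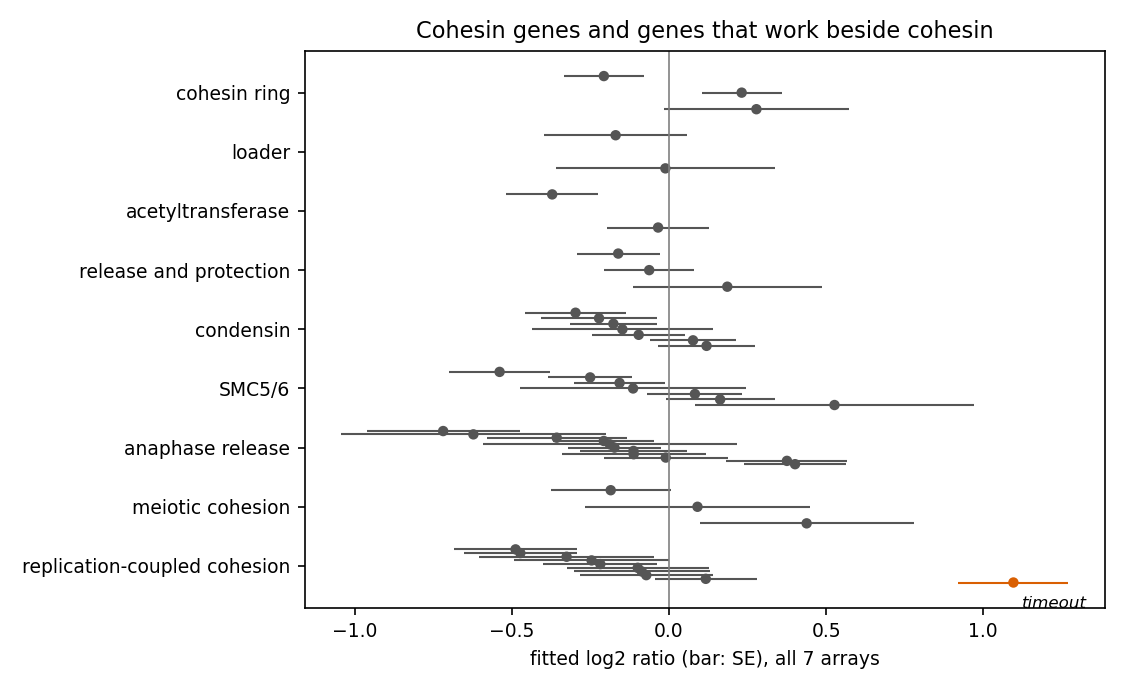
Fitted log2 ratio (horizontal axis, bars give the SE) of the 10 cohesin genes, in 4 groups by role, and of 38 genes in 5 lists of related complexes and steps, each by its probe of smallest p. The gene timeout, in orange, at 1.096, is the 1 gene past an adjusted p under 0.05 in limma.

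Likeness of pattern did not single out few genes. After the local median was taken off, the named probe most like each cohesin gene had a Pearson correlation over the 7 arrays between 0.967 and 0.997, and between 16 (wapl) and 360 (Nipped-B) of 12544 named probes exceeded 0.9. The most alike were E(var)3-9 for SMC1, CG31347 for SMC3, SIDL for SA1, CR7448 for Nipped-B, CG10737 for Mau2, tefu for san, Socs16D for eco, Pp4-19C for wapl, CG42336 for pds5 and ERp44 for dmt. On the deposited ratios the same pairs correlated between −0.03 (dmt) and 0.92 (SMC1), with SMC3 at 0.28 and pds5 at 0.55, so several pairs rested on the step.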

How the data were processed

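The values are log ratios as deposited by the authors, taken to be log2, for 14569 probes on each of 7 arrays. The sources used here do not give the background correction, normalization, log base or direction. The ratios were read as log2 because 2 values exceed 11.09, the natural log of the highest 16-bit reading, which leaves the base an assumption. Ratios were taken as already turned to 1 direction, since arrays of opposite dye orientation correlated positively (12 pairs, median r 0.27). By the channel labels the cleaved sample was in Cy5 on 4 arrays and Cy3 on 3. The design text counts them the other way round.

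Probes were named through the platform's annotation and RefSeq's gene table (Release 6 assembly), which gave 12657 probes 1 gene each. The genes and lists were chosen with earlier results of these data known. MNM, an isoform of mod(mdg4), was not matched, and vtd (Rad21), SA2, solo, polo, mts, BubR1 and RfC38 were not analysed here.

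Each probe was fitted with limma 3.58.1 in R 4.3.3 (effect and dye term, 5 residual degrees of freedom). The fit was also run on simulated arrays with independent noise and planted changes larger than the fitted values of the cohesin genes. Those arrays held no dye effect and no raised region, so that run does not test the fit under either, or for small changes. Adjusted p-values are by Benjamini-Hochberg. The design text calls the 7 pairs independent biological samples. The number of arrays limits the precision. Every cohesin gene, its most alike gene, and each list's called genes, or otherwise its gene of smallest p, were named. Likeness was taken after local centring. Alternatives left out each array or changed the dye term, centring, scaling, weights or sets. Block and local centring were added after seeing the data. They cover the 14451 probes with a settled block.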

Additional observations from a re-analysis of the deposited data

How the results depend on the processing

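The count of called cohesin genes was 0 in each setting run except the genomic Rad21 arrays alone, where it was 3, SMC3, Mau2 and dmt, in a fit whose dye term takes up array 1.3. Over all probes, 1158 were called, 2781 on the genomic and 39 on the transgenic arrays alone, and from 515 to 1157 without single arrays (724 without 1.1, 578 without 1.2, 661 without 2.1 and 515 without 2.4). By limma 0 cohesin genes passed for the kind of control in each setting run. Over all probes 0% passed in these settings too, apart from 1 of 14569 (0.00686%) in the fit without a dye term. The gene timeout lost its call on the transgenic arrays alone (1.21). SMC1, SA1, Nipped-B, eco and wapl kept their sign in all settings run. Without single arrays, fitted log2 ratios ran from −0.40 to 0.33 for Mau2 (0.17 without 2.1, 0.042 without 2.4), −0.13 to 0.50 for SMC3, −0.16 to 0.48 for dmt, −0.13 to 0.11 for san and −0.10 to 0.0087 for pds5. Signs turned for Mau2 with scaling (0.14), array weights (0.19), a set term (0.10), consecutive probe numbers (0.025) and the genomic arrays (0.96). SMC3 turned within blocks (−0.14), with the local median (−0.12) and on the transgenic arrays (−0.12), and dmt likewise (−0.013, −0.0395 and −0.31). The local median turned pds5 (0.025), and san turned with consecutive numbers (0.021) and on the transgenic arrays (0.075). With array 1.3 also left out, SMC3 gave −0.17, −0.10 and −0.023 under consecutive, block and local centring, san 0.18, 0.041 and 0.026, dmt −0.12 and −0.018 under the first pair, and pds5 0.0246 under local centring. For sunn the ratio was 1.16 on the genomic arrays alone, in the fit whose dye term takes up array 1.3. It was −0.013 without array 1.3, and −0.072 and −0.032 under consecutive and block centring without that array. The cause of these turns was not tested. Each ratio is the difference of a pair on 1 array, so the fits are paired and no further block was fitted. Signal over background was not given, so what it limits is unknown.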
